A study of Mus musculus with 12 samples.

Results

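Axin2, Nkd1, Notum, Rnf43, Znrf3, Apcdd1, Sp5 and Tcf7 are textbook targets of Wnt/β-catenin signalling, and most of them encode proteins that dampen the pathway that induces them. They were taken by name from the gene table and are 8 of its 27785 genes. RNA sequencing had measured them in 12 libraries of mouse rectum. The Lgr5-Cdx2-Apc group (2 libraries; genotype Lgr5creER;CDX2creER;APC flox) carried both Cre drivers, the Lgr5-Apc group (4 libraries; Lgr5creER;APC flox) and the Cdx2-Apc group (3 libraries; CDX2creER;APC flox) 1 each, and the control group held 3 libraries. All 3 Apc groups carried floxed Apc and received tamoxifen, 25 mg/kg by intraperitoneal injection on 5 consecutive days. CreER is a recombinase that becomes active when tamoxifen binds it, and Lgr5 marks intestinal stem cells while Cdx2 is a gene of hindgut epithelium. The controls are titled WT, but their genotype field reads CDX2creER;APC flox (WT), and the tamoxifen characteristic is absent from them although the tamoxifen protocol stands on their records. Genotype and a possible injection therefore cannot be told apart in any comparison with control. Strain, age and sex are not among the labels used here, and nothing says which samples share an animal, so a p-value speaks only of the scatter among libraries, which may be technical.

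Without a Wnt ligand, a complex of APC, AXIN and kinases marks β-catenin for degradation. Loss of APC stabilises β-catenin, which then binds TCF/LEF factors on DNA and switches on target genes. In intestinal crypts these targets include the feedback inhibitors AXIN2, which rebuilds the degradation complex, and RNF43 and ZNRF3, which remove Wnt receptors from the cell surface.

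Levels are FPKM, a fragment count corrected for transcript length and sequencing yield. A gene entered the test when 2 or more libraries had it at 1 FPKM or above, which 7 of the 8 did. Sp5 did not, and Notum did so through only 2 libraries. The mean over the 12 libraries was 11.3 FPKM for Rnf43, 11.1 for Axin2, 9.68 for Znrf3, 7.96 for Apcdd1, 4.25 for Nkd1, 2.41 for Tcf7, 0.514 for Notum and 0.114 for Sp5. Rnf43 and Axin2 stood above 62.7% and 62.2% of the tested genes on this scale, and Notum above 2.22%. On GRCm38 (GENCODE M21), 5 of the 8 lie on chromosome 11: Axin2 at 108920349 to 108950783, Notum at 120653788 to 120661175, Rnf43 at 87662722 to 87735539, Znrf3 at 5276324 to 5444847 and Tcf7 at 52252371 to 52283014. Nkd1 lies on chromosome 8 at 88521354 to 88594884 and Sp5 on chromosome 2 at 70474923 to 70477729. All 8 are annotated as protein-coding, and the values cover whole genes.

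Promoter windows of 300 bases, with 250 before and 50 after the RefSeq start, were taken for 5 of the 8 genes (7 windows, RefSeq, GRCm38.p6). They were searched on both strands for CTTTGAT and CTTTGAA, core letters that TCF/LEF factors recognise; these 7-letter words share 6 letters, so 1 position can hold only 1 of them. Only the Sp5 window held a match, CTTTGAT on the gene's strand with its first base at -104 from the start. Of 32851 windows in the table, 3.73% held CTTTGAT, 5.14% CTTTGAA and 8.65% either. A match in these letters is a description of the sequence, not a binding site. The Sp5 window is shown because it holds the match (in capitals; chr2:70474673-70474972, plus strand), and the Axin2 window (chr11:108920099-108920398, plus strand) because Axin2 is the member most used to read the pathway.
Sp5: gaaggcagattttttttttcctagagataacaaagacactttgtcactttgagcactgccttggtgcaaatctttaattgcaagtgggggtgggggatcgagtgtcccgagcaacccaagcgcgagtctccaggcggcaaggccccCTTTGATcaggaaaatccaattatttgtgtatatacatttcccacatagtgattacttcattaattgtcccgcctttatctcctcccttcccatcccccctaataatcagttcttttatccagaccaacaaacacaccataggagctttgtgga
Axin2: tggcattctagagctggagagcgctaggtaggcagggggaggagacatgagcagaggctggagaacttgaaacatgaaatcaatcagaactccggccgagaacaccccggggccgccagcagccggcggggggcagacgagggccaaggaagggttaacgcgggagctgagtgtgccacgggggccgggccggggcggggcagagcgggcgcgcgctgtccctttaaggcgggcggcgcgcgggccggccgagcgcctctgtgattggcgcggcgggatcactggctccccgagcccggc

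Apc, the targeted gene, was at 13.5 to 18.8 FPKM in the 12 libraries. A whole-gene value cannot reveal the loss of single exons. Total FPKM ran from 451297 to 728462 per library, with 20522 to 22562 genes above 0, and the depth in reads is unknown. The tissue itself differed. Columnar epithelium markers, which define the rectal lining, fell in Lgr5-Cdx2-Apc against control for 7 of 8 genes (limma, adjusted p below 0.05). Their summed level was 181 to 998 FPKM in Lgr5-Cdx2-Apc, 1136 to 4812 in Lgr5-Apc, 4665 to 5669 in Cdx2-Apc and 3422 to 5429 in control, and none of them was listed at 0 in any library. Epcam, a surface protein of columnar cells, was 175 and 65.4 FPKM in Lgr5-Cdx2-Apc, 154 in Lgr5-Apc replicate 2 and at least 415 in the other 9 libraries. Hair follicle and sebaceous gland markers rose for 11 of 11 genes and skeletal muscle markers for 7 of 8, though 6 and 1 of these entered the test only through the Lgr5-Cdx2-Apc libraries. Atp2a1, a calcium pump of skeletal muscle, was 40.6 and 53.0 FPKM in Lgr5-Cdx2-Apc, 40.1 in Lgr5-Apc replicate 2 and at most 2.85 elsewhere. In bulk tissue, fewer cells of a type and less RNA per cell cannot be told apart, and the part of these shifts in the differences below was not tested. Some values below come from fits with a marker score. The mean log2(FPKM + 1) of the columnar list, its score, was 4.01 to 6.59 in Lgr5-Cdx2-Apc and 8.18 to 8.75 in control. Because a score differs between the groups in this way, such a fit cannot separate genotype from tissue content, and a lost call decides nothing.

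**Figure D1:**
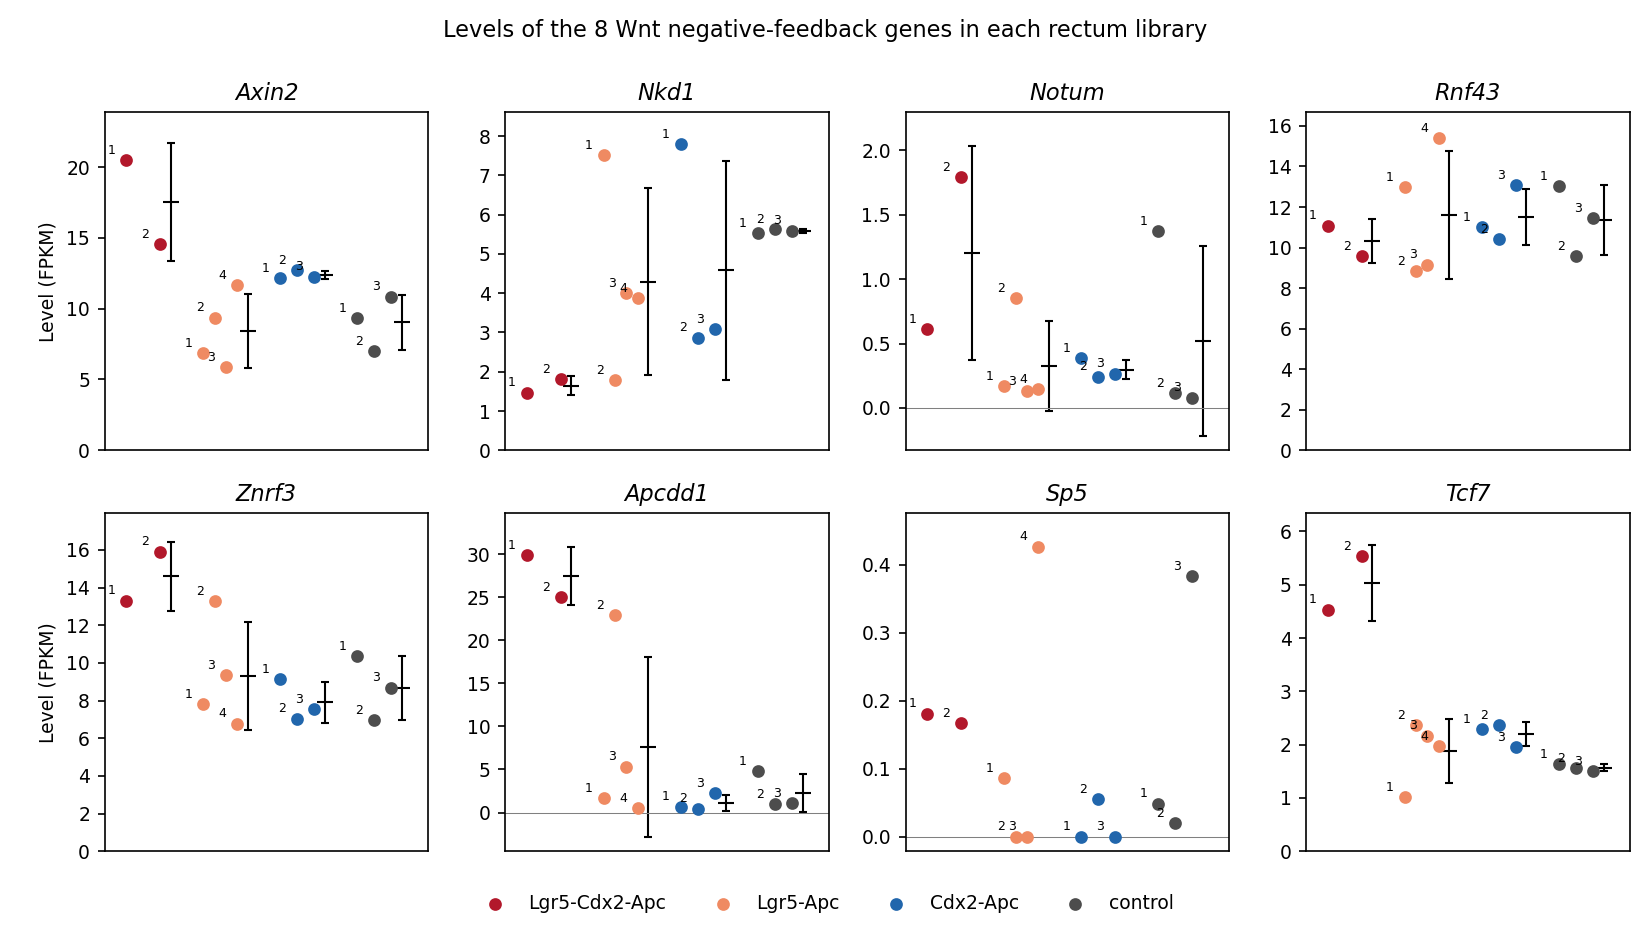
Level in FPKM (y axis, linear) of each of the 8 genes in each of the 12 libraries, with the replicate number beside each point. Black marks are the group mean ± SD, left out for Sp5, which is listed at 0 in 4 libraries; Tcf7 and Apcdd1 were highest in both Lgr5-Cdx2-Apc libraries, and Apcdd1 in Lgr5-Apc replicate 2 came close to them.

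Against control, Lgr5-Cdx2-Apc rectum had 3 members higher, Tcf7, Apcdd1 and Axin2, and 0 lower of 7 tested, while Nkd1, Znrf3, Notum and Rnf43 did not pass. The test was limma on log2(FPKM + 1) over 17360 genes, with a Benjamini-Hochberg adjusted p below 0.05 taken as a call and all differences given as first group minus second. Of all tested genes 19.1% were called in this comparison, so the count of 3 in 7 is to be read against a background in which a large share of genes moved. The median difference of the 7 genes was 0.70 on the log2 scale, against 0.07 over all tested genes. Tissue marker lists had medians from -6.02 for smooth muscle to 5.10 for squamous epithelium. The libraries of the groups did not overlap for 5 of 7 members, against 57.4% of all tested genes.

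Among the intracellular inhibitors, Axin2, the scaffold of the degradation complex that Wnt signalling itself induces, was 20.5 and 14.6 FPKM in the Lgr5-Cdx2-Apc libraries. It was 6.87, 9.37, 5.85 and 11.7 FPKM in Lgr5-Apc replicates 1 to 4, 12.1, 12.7 and 12.3 FPKM in Cdx2-Apc, and 9.31, 6.98 and 10.8 FPKM in control. Both libraries with both drivers lay above all 10 others, and the 3 Cdx2-Apc libraries lay above the controls and above all Lgr5-Apc libraries. The group means ran in the order Lgr5-Cdx2-Apc at 17.5 ± 4.20 (SD, n = 2), Cdx2-Apc at 12.4 ± 0.308 (n = 3), control at 9.05 ± 1.95 (n = 3) and Lgr5-Apc at 8.44 ± 2.61 (n = 4). Control and Lgr5-Apc, neighbours in that order, overlapped. Axin2 rose in Lgr5-Cdx2-Apc by a log2 difference of 0.88 ± 0.27 (SE; limma adjusted p = 0.0468) against control and by 1.00 ± 0.26 (adjusted p = 0.0427) against Lgr5-Apc. Against Cdx2-Apc the log2 difference was 0.45 ± 0.27 (limma adjusted p = 0.242). Its constitutive paralog Axin1 averaged 14.9 ± 0.919 FPKM in Lgr5-Cdx2-Apc and 12.4 ± 2.32 FPKM in control. The ratio of Axin2 to Axin1 was 1.32 and 1.02 in Lgr5-Cdx2-Apc, 0.287 to 0.781 in Lgr5-Apc, 0.956 to 1.07 in Cdx2-Apc and 0.655 to 0.821 in control, so the Lgr5-Cdx2-Apc and Cdx2-Apc ratios overlapped and both lay above the rest. The Axin2 call against control held in 3 of 12 fits that left out 1 library (without Lgr5-Apc replicate 2, 3 or 4), with an adjusted p of up to 0.243 in the others and a difference of 0.65 to 1.12. That against Lgr5-Apc held in 3 of 12 (without Lgr5-Apc replicate 2, Lgr5-Apc replicate 4 or control replicate 2), with a difference of 0.76 to 1.23. With the columnar score in the fit the difference against control was 1.10 and no longer passed (adjusted p = 0.503), and with the squamous score it was 1.04 (adjusted p = 0.0554).

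Nkd1, which binds Dishevelled and blocks signalling downstream of the receptor, was the 1 intracellular member with its lowest group mean in Lgr5-Cdx2-Apc. It was 1.47 and 1.81 FPKM there, 7.52, 1.79, 4.01 and 3.87 FPKM in Lgr5-Apc, 7.80, 2.87 and 3.08 FPKM in Cdx2-Apc, and 5.52, 5.63 and 5.59 FPKM in control. The 3 controls were nearly equal, whereas Lgr5-Apc and Cdx2-Apc each spanned a wide range that included the controls. The log2 difference of Lgr5-Cdx2-Apc was -1.32 ± 0.44 (SE; limma adjusted p = 0.0602) against control, -0.90 ± 0.42 (adjusted p = 0.183) against Lgr5-Apc and -0.98 ± 0.44 (adjusted p = 0.129) against Cdx2-Apc, none of which passed. Against control it passed in only 3 of 12 fits without 1 library, with a difference of -1.42 to -1.23 over the 12. These were the fits without Lgr5-Apc replicate 1 (limma adjusted p = 0.0391), Lgr5-Apc replicate 2 (0.0261) and Cdx2-Apc replicate 1 (0.0442). It passed in 4 of 11 other fits, among them quantile normalization (-1.57, adjusted p = 0.0379), the compared groups alone (adjusted p = 0.00831) and library quality weights (adjusted p = 0.0194). With the columnar score in the fit it was -0.79 (adjusted p = 0.744) and with the squamous score -1.02 (adjusted p = 0.185). Its paralog Nkd2 was 7.29 and 5.20 FPKM in Lgr5-Cdx2-Apc and 2.96 to 4.15 FPKM in control. The ratio of Nkd1 to Nkd2 was 0.201 and 0.348 in Lgr5-Cdx2-Apc, 1.49 to 4.19 in Lgr5-Apc, 1.21 to 1.44 in Cdx2-Apc and 1.33 to 1.90 in control.

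Smooth muscle markers moved with Nkd1. All 10 of 10 fell in Lgr5-Cdx2-Apc against control, to a summed level of 57.7 to 84.6 FPKM, against 720.1 to 3494 in Lgr5-Apc, 1695 to 4563 in Cdx2-Apc and 3293 to 4073 in control, and none was listed at 0 in any library. Actg2, an actin of gut smooth muscle, was 8.33 and 3.59 FPKM in Lgr5-Cdx2-Apc and 723 to 921 FPKM in control. Across the 10 libraries outside Lgr5-Cdx2-Apc, the mean log2(FPKM + 1) of the smooth muscle list was 7.33 to 7.81 in Cdx2-Apc replicate 1, Lgr5-Apc replicate 1 and the 3 controls, the 5 libraries with the highest Nkd1. It was 5.32 to 6.67 in the other 5. Other lists also followed Nkd1 over these 10 libraries. Pearson's r was 0.85 with smooth muscle, 0.68 with endothelium, 0.56 with enteric neurons and glia, 0.51 with fibroblasts and -0.61 with hair follicle markers. The part of muscle or other tissue content in the Nkd1 values was not tested.

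At the receptor, Rnf43 and Znrf3 encode related membrane ubiquitin ligases that clear Frizzled receptors, and their levels did not move together. Znrf3 was 13.3 and 15.9 FPKM in Lgr5-Cdx2-Apc, 7.80, 13.3, 9.37 and 6.78 FPKM in Lgr5-Apc, 9.15, 7.04 and 7.53 FPKM in Cdx2-Apc, and 10.3, 6.98 and 8.69 FPKM in control. Lgr5-Apc replicate 2 came within the rounding of the lower Lgr5-Cdx2-Apc library, and the other 9 libraries were at 10.3 FPKM or less. Znrf3 rose in Lgr5-Cdx2-Apc against Cdx2-Apc by a log2 difference of 0.81 ± 0.26 (SE; limma adjusted p = 0.0458). It did not pass against control (0.70 ± 0.26, limma adjusted p = 0.0798) or Lgr5-Apc (0.63 ± 0.25, adjusted p = 0.120). The call against Cdx2-Apc held in 3 of 12 fits without 1 library (Lgr5-Apc replicate 2, Lgr5-Apc replicate 4 or control replicate 1), and without Lgr5-Apc replicate 2 Znrf3 also passed against control (adjusted p = 0.0318) and Lgr5-Apc (adjusted p = 0.0195). With the columnar marker score in the fit the Znrf3 difference was 0.07 against Cdx2-Apc (adjusted p = 0.970) and 0.03 against control (adjusted p = 0.985).

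Rnf43 was the steadiest of the 8. It was 11.1 and 9.57 FPKM in Lgr5-Cdx2-Apc, 13.0, 8.84, 9.15 and 15.4 FPKM in Lgr5-Apc, 11.01, 10.4 and 13.1 FPKM in Cdx2-Apc, and 13.0, 9.57 and 11.5 FPKM in control. All 4 groups overlapped, and their means lay between 10.3 and 11.6 FPKM. None of its 7 contrasts passed the test. The ratio of Znrf3 to Rnf43 was 1.2 and 1.66 in Lgr5-Cdx2-Apc, 0.440 to 1.5 in Lgr5-Apc, 0.576 to 0.831 in Cdx2-Apc and 0.730 to 0.793 in control. Lgr5-Apc replicate 2 was again the library nearest to those with both drivers.

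The extracellular members differed widely in level, Apcdd1 averaging 7.96 FPKM and Notum 0.514 FPKM. Apcdd1 (GRCm38 chromosome 18, 62922231 to 62961179) encodes a membrane glycoprotein that binds Wnt ligands and their receptor LRP and is known from hair follicles. It was 29.9 and 25.0 FPKM in Lgr5-Cdx2-Apc, 1.67, 22.9, 5.32 and 0.50 FPKM in Lgr5-Apc, 0.682, 0.439 and 2.23 FPKM in Cdx2-Apc, and 4.81, 0.978 and 1.05 FPKM in control. Lgr5-Apc replicate 2 was close to the Lgr5-Cdx2-Apc libraries, and Lgr5-Apc alone spanned from 0.50 to 22.9 FPKM. Apcdd1 had the largest called difference of the 8 genes. It rose in Lgr5-Cdx2-Apc by a log2 difference of 3.30 ± 0.97 (SE; limma adjusted p = 0.0398) against control and by 3.84 ± 0.97 (adjusted p = 0.0209) against Cdx2-Apc. Against Lgr5-Apc it was 2.52 ± 0.92 (adjusted p = 0.103), and without Lgr5-Apc replicate 2 it was 3.27 and passed (adjusted p = 0.00682).

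Squamous epithelium markers ran in parallel with Apcdd1, and other lists followed it too. Over the 10 libraries outside Lgr5-Cdx2-Apc, Pearson's r of Apcdd1 was 0.94 with the squamous and with the hair follicle score. It was 0.84 with skeletal muscle, -0.86 with columnar epithelium and -0.89 with enteric neurons and glia. Squamous epithelium is the lining of the anal canal, next to the rectum. In the 10 libraries outside Lgr5-Cdx2-Apc, the 3 with the highest mean log2(FPKM + 1) of the squamous list, Lgr5-Apc replicate 2 (9.79), Lgr5-Apc replicate 3 (8.84) and the first control (7.04), were also the 3 with the most Apcdd1. The next 2 by score, Cdx2-Apc replicate 3 at 4.94 and Lgr5-Apc replicate 1 at 4.74, were next in Apcdd1, and the 5 libraries with scores of 0.86 to 2.47 had at most 1.05 FPKM. The Lgr5-Cdx2-Apc libraries, with squamous scores of 7.26 and 8.93, held more Apcdd1 than Lgr5-Apc replicates 2 and 3 did at higher or similar scores. Against control, where 19.1% of all tested genes were called, only 2 of 12 squamous markers rose in Lgr5-Cdx2-Apc. Their summed level was 10121 to 19568 FPKM in Lgr5-Cdx2-Apc, 35.0 to 28446 in Lgr5-Apc, 16.6 to 735 in Cdx2-Apc and 68.6 to 4564 in control. Ivl was listed at 0 in 3 libraries and Lor and Dsg3 in 1 each, none of them Lgr5-Cdx2-Apc. With the squamous score in the fit the Apcdd1 difference against control was 1.83 (limma adjusted p = 0.0470) that against Cdx2-Apc 1.85 (adjusted p = 0.0758) and that against Lgr5-Apc 1.80, which passed (adjusted p = 0.0314). With the columnar score it was 1.09 against control (adjusted p = 0.814). The Apcdd1 call against control held in 4 of 12 fits without 1 library (Lgr5-Apc replicate 1, 2 or 4, or control replicate 1), with a difference of 3.04 to 3.81 over the 12. That against Cdx2-Apc was lost without either Lgr5-Cdx2-Apc library or Cdx2-Apc replicate 1 or 2. Hair follicle markers had mean scores of 3.94 and 3.33 in Lgr5-Cdx2-Apc, 1.95 and 1.5 in Lgr5-Apc replicates 2 and 3, and at most 0.78 elsewhere.

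**Figure D2:**
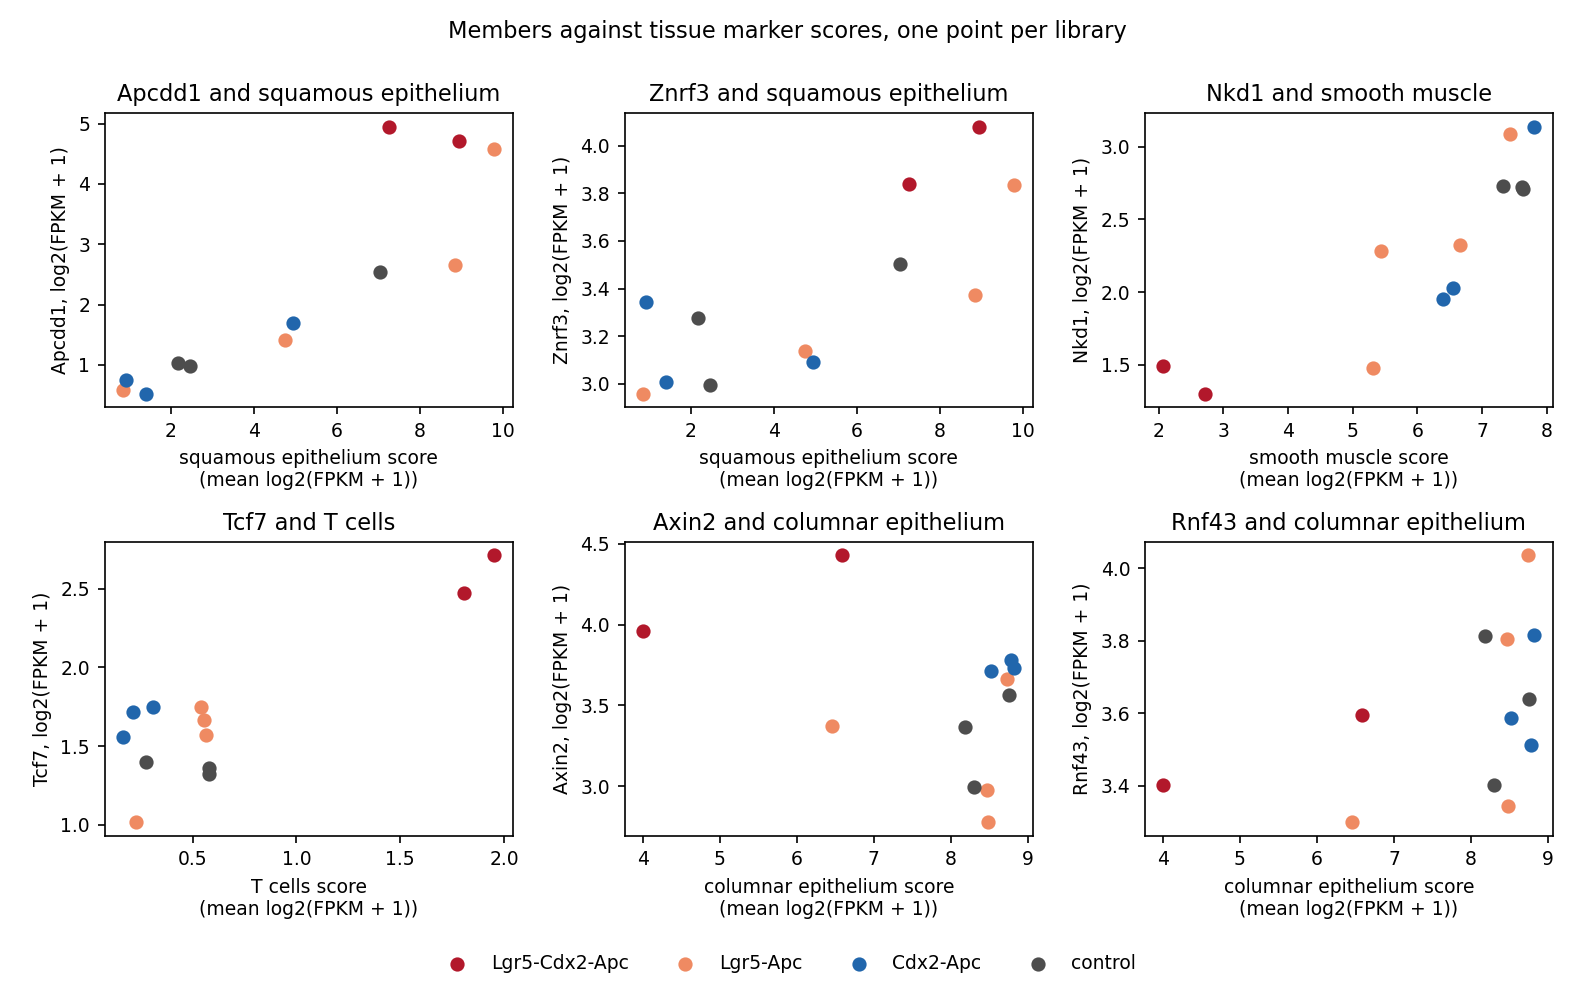
Log2(FPKM + 1) of 6 members (y axis) against the mean log2(FPKM + 1) of a marker list (x axis), 1 point per library: Apcdd1 and Znrf3 with squamous, Nkd1 with smooth muscle, Tcf7 with T cell, and Axin2 and Rnf43 with columnar markers. Outside Lgr5-Cdx2-Apc, Apcdd1 increases with the squamous score and Nkd1 with the smooth muscle score, while both Lgr5-Cdx2-Apc libraries stand apart in Tcf7 and in T cell markers.

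Notum, a secreted enzyme that inactivates Wnt ligands by removing their lipid, was near the bottom of the measured range. It was 0.613 and 1.79 FPKM in Lgr5-Cdx2-Apc, 0.170, 0.851, 0.132 and 0.148 FPKM in Lgr5-Apc, 0.384, 0.243 and 0.266 FPKM in Cdx2-Apc, and 1.37, 0.112 and 0.0792 FPKM in control. Only Lgr5-Cdx2-Apc replicate 2 and control replicate 1 reached 1 FPKM, and the groups overlapped except for Lgr5-Cdx2-Apc and Cdx2-Apc. The log2 difference of Lgr5-Cdx2-Apc was 0.58 ± 0.38 (SE; limma adjusted p = 0.287) against control, 0.71 ± 0.36 (adjusted p = 0.213) against Lgr5-Apc and 0.71 ± 0.38 (adjusted p = 0.188) against Cdx2-Apc. With the columnar score in the fit all 3 changed sign, to -0.49, -0.23 and -0.46.

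In the nucleus, Tcf7 encodes TCF1, a DNA-binding partner of β-catenin that is also abundant in T lymphocytes. It was 4.53 and 5.54 FPKM in Lgr5-Cdx2-Apc, 1.02, 2.36, 2.17 and 1.97 FPKM in Lgr5-Apc, 2.29, 2.36 and 1.95 FPKM in Cdx2-Apc, and 1.63, 1.57 and 1.51 FPKM in control. Both Lgr5-Cdx2-Apc libraries lay above the other 10, and the 3 Cdx2-Apc libraries lay above the controls, whereas Lgr5-Apc overlapped both. Tcf7 rose in Lgr5-Cdx2-Apc by a log2 difference of 1.23 ± 0.23 (SE; limma adjusted p = 0.00923) against control, by 1.09 ± 0.22 (adjusted p = 0.0174) against Lgr5-Apc and by 0.91 ± 0.23 (adjusted p = 0.0204) against Cdx2-Apc, the 1 member called in all 3. Against control it was called in 11 of 12 fits without 1 library, the exception being Lgr5-Cdx2-Apc replicate 2 (1.11, adjusted p = 0.127). Against Lgr5-Apc the call was lost without either Lgr5-Cdx2-Apc library (0.97 to 1.21), and against Cdx2-Apc also without Cdx2-Apc replicate 2 or 3 (0.79 to 1.03 over the 12 fits). With the squamous score in the fit the difference against control was 1.14 and passed (adjusted p = 0.0291), and with the columnar score it was 0.86 (adjusted p = 0.512).

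T cell markers were higher in the same libraries. Pearson's r between Tcf7 and the mean log2(FPKM + 1) of the T cell list was 0.87 over the 12 libraries. Over the 10 outside Lgr5-Cdx2-Apc it was 0.095. Other lists followed Tcf7 as closely. Over the 12 libraries r was 0.87 with the hair follicle score, -0.91 with smooth muscle and -0.81 with columnar epithelium. Over the 10 these values were 0.40, -0.52 and -0.24. Of 7 tested T cell genes 6 rose in Lgr5-Cdx2-Apc against control, but 6 of the 7 entered the test only through the Lgr5-Cdx2-Apc libraries, so the count was partly set by the filter. The summed level of the 10 listed genes was 41.4 to 43.6 FPKM in Lgr5-Cdx2-Apc, 1.80 to 6.69 in Lgr5-Apc, 1.31 to 2.59 in Cdx2-Apc and 2.47 to 5.35 in control. Trac was listed at 0 in 7 libraries, 1 of them Lgr5-Cdx2-Apc, and Cd3g, Cd3d, Cd8a, Trbc2 and Cd2 in 1 to 3 libraries outside that group. Cd3e, a chain of the T cell receptor complex, was 11.1 and 11.3 FPKM in Lgr5-Cdx2-Apc and at most 1.03 FPKM in the other 10. The ratio of Tcf7 to Cd3e was 0.409 and 0.489 in Lgr5-Cdx2-Apc, 2.26 to 5.20 in Lgr5-Apc, 3.74 to 15.1 in Cdx2-Apc and 2.88 to 6.57 in control, and the part of T cells in the Tcf7 difference was not tested. Among the paralogs, Tcf7l2, the main TCF of intestinal epithelium, fell in Lgr5-Cdx2-Apc against control (log2 difference -1.35 ± 0.42, SE; limma adjusted p = 0.0477). The ratio of Tcf7 to Tcf7l2 was 0.113 and 0.259 in Lgr5-Cdx2-Apc, 0.00961 to 0.0681 in Lgr5-Apc, 0.0213 to 0.0343 in Cdx2-Apc and 0.0175 to 0.0273 in control.

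Sp5, a zinc-finger transcription factor and direct Wnt target that represses other targets, was barely present. It was 0.181 and 0.167 FPKM in Lgr5-Cdx2-Apc, 0.0859, 0, 0 and 0.427 FPKM in Lgr5-Apc, 0, 0.0558 and 0 FPKM in Cdx2-Apc, and 0.0486, 0.0196 and 0.383 FPKM in control. Lgr5-Apc replicate 4 held the most, and the groups overlapped except for Lgr5-Cdx2-Apc and Cdx2-Apc. It was not tested, and at levels this low FPKM without reads gives no detection limit.

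Neither group with 1 driver had a called difference from control in any of the 7 tested members. Against control, limma called 0 of 7 members in Lgr5-Apc (background 0.0115%), with 0 below 0.05 by unadjusted p (10.8% of all tested genes), and no member's libraries were apart (background 7.91%). The 7 log2 differences lay between -0.42 and 0.79, and their 95% intervals between -1.25 and 2.58. Cdx2-Apc likewise had 0 of 7 called (background 0.0403%) and 0 at an unadjusted p under 0.05 (1.64% of all tested genes). Axin2 and Tcf7 were the 2 members whose 3 Cdx2-Apc libraries all lay above the 3 controls (background 8.58%). Their log2 differences were 0.43 ± 0.24 and 0.32 ± 0.20 (SE; limma adjusted p = 1 for both). The 7 differences lay between -0.53 and 0.43, with 95% intervals between -2.45 and 1.39. With so few genes called among all those tested in both comparisons, a missing call does not show that these genes were at control level.

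Between the single drivers, Lgr5-Apc against Cdx2-Apc, 0 of 7 members were called (background 0.0346%) and Axin2 was the 1 member at an unadjusted p under 0.05, as were 10.4% of all tested genes. All 4 Lgr5-Apc libraries lay below the 3 Cdx2-Apc libraries in Axin2 (log2 difference -0.54 ± 0.23, SE; unadjusted p = 0.0378, limma adjusted p = 0.457), the 1 member without overlap (background 11.1%). In Lgr5-Cdx2-Apc against Lgr5-Apc, 2 of 7 members were called, Axin2 and Tcf7, both higher (background 8.99%), with 4 of 7 not overlapping (background 33%). Against Cdx2-Apc, 3 of 7 were called, Apcdd1, Tcf7 and Znrf3, all higher in Lgr5-Cdx2-Apc (background 23.8%), with 6 of 7 not overlapping (background 63.8%).

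The departure from additivity, the Lgr5-Cdx2-Apc effect less both single-driver effects, each against control, asks whether both drivers together differed from the sum of their single effects. It was called for 0 of 7 members (background 1.58%), with 2 at an unadjusted p under 0.05, as were 21.0% of all tested genes. The largest values were 3.05 ± 1.26 for Apcdd1 (SE; limma adjusted p = 0.208), 0.77 ± 0.30 for Tcf7 (adjusted p = 0.187) and 0.74 ± 0.34 for Znrf3 (adjusted p = 0.240). Without Lgr5-Apc replicate 2 the Apcdd1 value was 3.80 and passed (adjusted p = 0.0211). These contrasts share libraries with those above, the controls included, so they are not separate evidence.

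**Figure D3:**
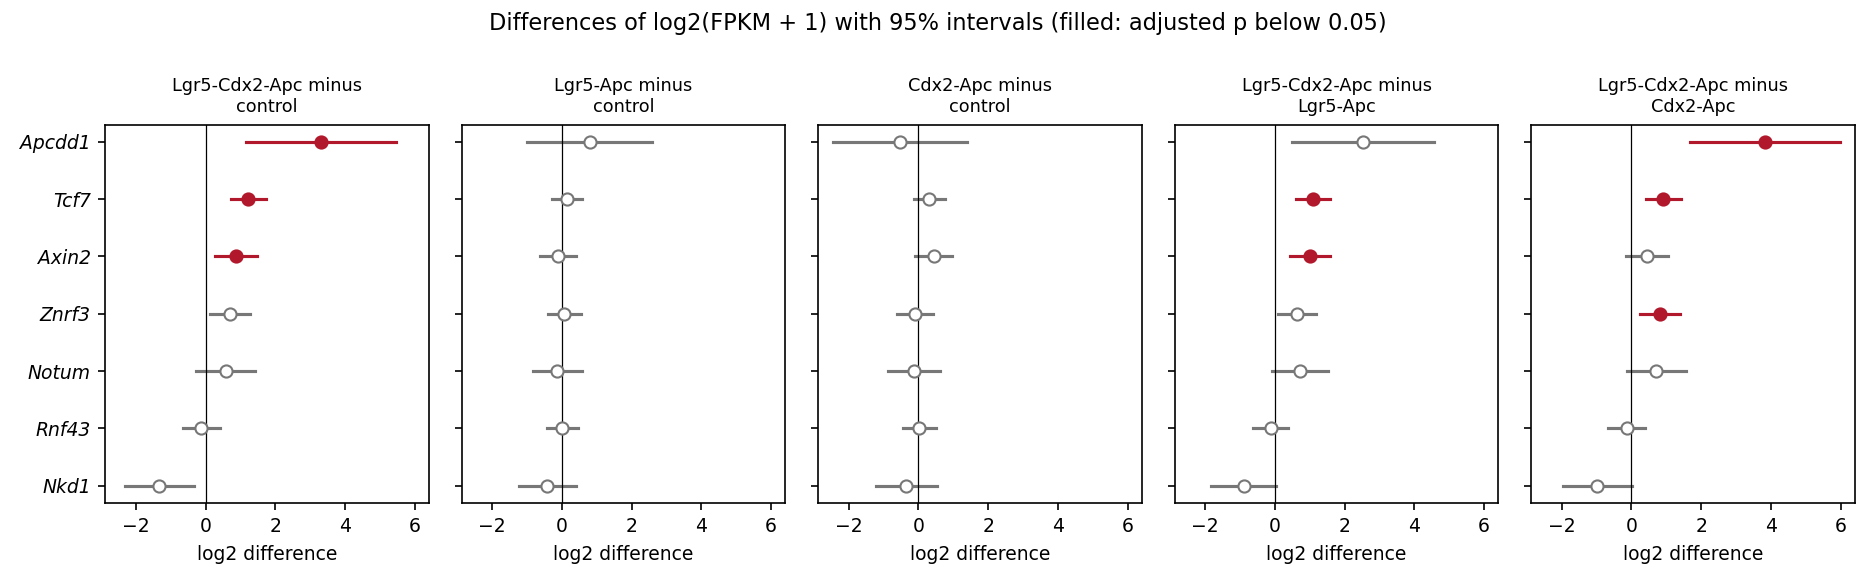
Difference of log2(FPKM + 1) (x axis) with its 95% interval for the 7 tested members in 5 contrasts; filled red points have a limma adjusted p below 0.05. In the 2 panels that set 1 driver against control every interval includes 0, and in the 3 panels of Lgr5-Cdx2-Apc, Tcf7 is filled throughout.

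Other genes of the pathway moved in both directions in Lgr5-Cdx2-Apc against control (background 19.1%, as above). Of 19 further Wnt target genes tested, 2 rose and 2 fell, with a median log2 difference of 0.03. Lgr6 and Tnfrsf19, receptors with known roles in skin appendages, rose by 4.08 ± 0.64 and 3.94 ± 0.68 (SE; limma adjusted p = 0.00429 and 0.00705). Cdx1 and Ephb2, genes of intestinal epithelium, fell by 3.33 and 1.80 on the log2 scale (adjusted p = 0.0244 and 0.0276). Lgr5 itself, the stem cell gene, was 4.48 and 3.77 FPKM in Lgr5-Cdx2-Apc, 1.30 to 4.72 FPKM in Lgr5-Apc, 2.81 to 4.16 FPKM in Cdx2-Apc and 3.60 to 5.95 FPKM in control. Ascl2, a stem cell transcription factor, was 5.74 and 3.34 FPKM in Lgr5-Cdx2-Apc and 2.94 to 5.84 FPKM in control. Both overlapped between those groups.

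Of 15 other feedback inhibitors tested, 3 rose and 1 fell, with a median of -0.12. Sostdc1, a secreted inhibitor of Wnt and BMP signals, was 39.1 and 57.3 FPKM in Lgr5-Cdx2-Apc, 0.0911 to 17.2 FPKM in Lgr5-Apc, 0.350 to 1.51 FPKM in Cdx2-Apc and 0.985 to 3.89 FPKM in control (log2 difference against control 4.12 ± 0.97, SE; limma adjusted p = 0.0199). Its highest value outside Lgr5-Cdx2-Apc was again in Lgr5-Apc replicate 2. The secreted Wnt binder Wif1 rose by 1.26 (adjusted p = 0.0297) and Kremen1, a receptor for DKK proteins, by 1.53 (adjusted p = 0.0485), while Dact3, a Dishevelled-binding protein, fell by 2.45 (adjusted p = 0.0176).

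Of 16 degradation complex and transduction genes tested, 3 rose and 0 fell, with a median of 0.28. They were Ctnnbip1, which blocks β-catenin from binding TCF (2.42, limma adjusted p = 0.00546), Dvl1 (1.08, adjusted p = 0.0272) and the coreceptor Lrp5 (0.68, adjusted p = 0.0459). Of 11 TCF/LEF factors and nuclear partners, Bcl9l and Pygo1, coactivators of β-catenin, rose by 1.89 and 0.75 (limma adjusted p = 0.0335 and 0.0376), and the corepressor Tle4 and Tcf7l2 fell. Of 6 R-spondin receptors and ligands tested, 2 were called higher and 1 fell, but both of the higher ones, Lgr6 and Rspo4, entered the test only through the Lgr5-Cdx2-Apc libraries. The same holds for Wif1 and Pygo1. Lgr4, the widespread R-spondin receptor, fell by 1.31 (limma adjusted p = 0.0113), Lgr6 stands in this list too, and Rspo4 was 1.39 and 1.42 FPKM in Lgr5-Cdx2-Apc and listed at 0 in all controls. In Lgr5-Apc and in Cdx2-Apc against control, 0 genes of these 5 lists were called.

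**Figure D4:**
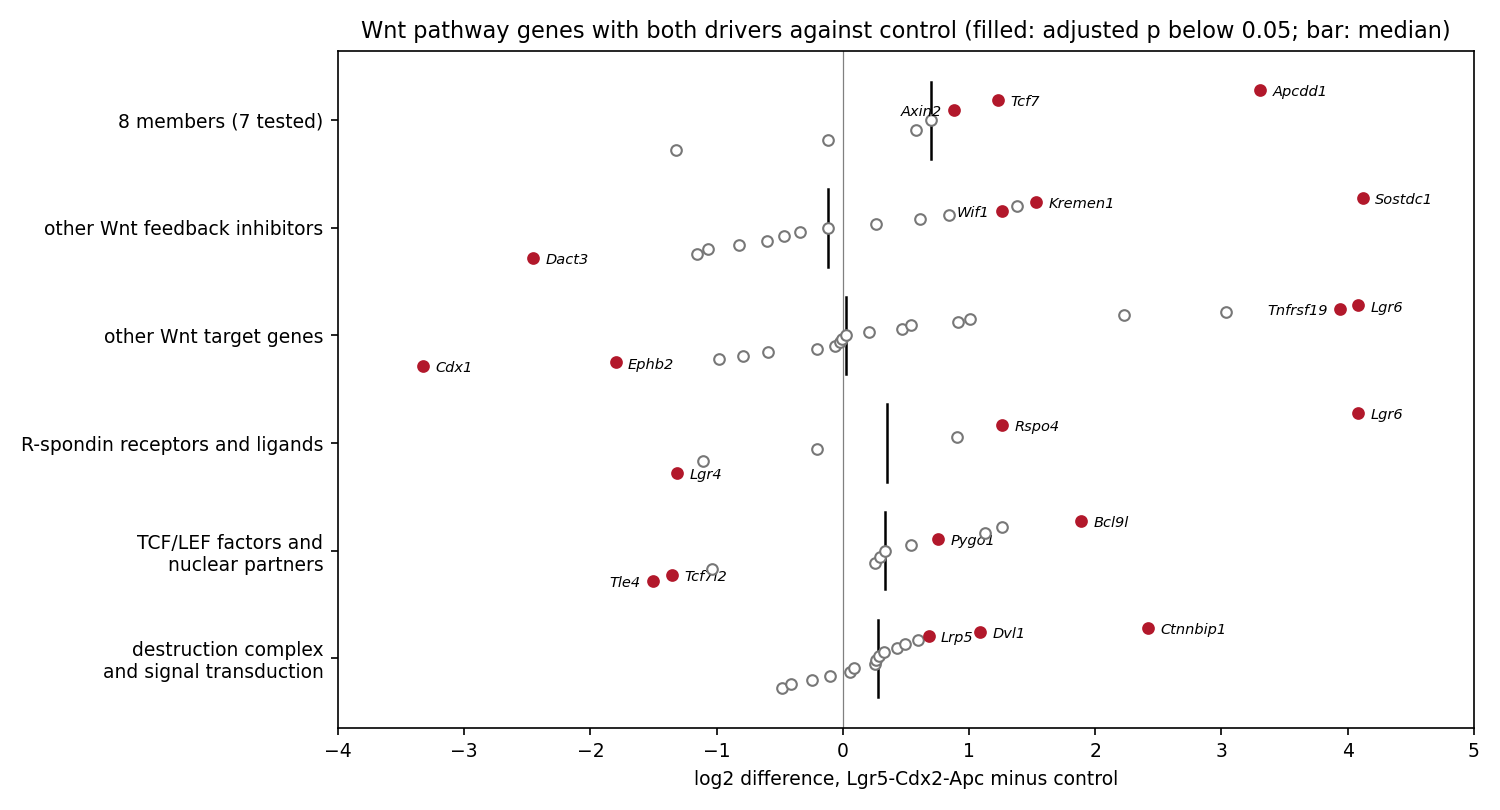
Difference of log2(FPKM + 1) between Lgr5-Cdx2-Apc and control (x axis) for each tested gene of the member list and of 5 other Wnt pathway lists, with called genes filled and named and the list median as a bar. The member median of 0.70 lies above those of the 5 other Wnt pathway lists, and is the difference of Znrf3, which was not called. Called genes stand on both sides of 0 in the other lists except the degradation complex list, where all 3 are above 0; Rspo4 is listed at 0 in the controls.

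The 3 genes most like each member, Notum left out, were listed. Over the 12 libraries, for 9120 protein-coding genes averaging 5 FPKM or more, likeness was measured as Pearson's r of log2(FPKM + 1), given as a description since the libraries share tissue composition. Apcdd1 was most like Il20rb (r = 0.99), Plscr3 and Pdzd2, Znrf3 most like Rasal2 (0.97), Parp8 and Amotl1, and Nkd1 most like Tgfb1i1 (0.95), Rbpms and Plcb4. Axin2 was most like Mtss1 (0.91), Sin3a and Card10, Tcf7 most like Ralgapa1 (0.94), Tlcd2 and Pikfyve, and Rnf43 most like Zzef1 (0.91), Synj1 and Fhod1. No gene stood in the lists of 2 members, but lists of 3 genes out of 9120 are too short to show how far the members differed. Among the members, Znrf3 and Apcdd1 were the most alike pair (r = 0.93, and 0.85 with group means subtracted), and Nkd1 ran opposite to Tcf7 (-0.78, and -0.57). For Axin2 and Rnf43 r was 0.16, and 0.53 with group means subtracted.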

How the data were processed

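The deposited table holds 1 FPKM value per gene and library. Per the submitters' processing notes it came from STAR, Cufflinks and Cuffdiff on mm10; versions and gene annotation are not given in the sources used here. Per the labels' protocols, RNA was extracted with RNeasy Plus, treated with DNase and made into NEBNext Ultra II directional libraries. The header names no unit; FPKM is taken from the named tools and the form of the values, and whether libraries were rescaled to one another is not stated. Whole reads could not be recovered from them, so no counting interval was computed and a 0 is given as listed at 0.

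Of 27831 lines, 25 carried date numbers for names, and a repeated symbol kept its line of highest mean. No member stood on more than 1 line. The 17360 genes at 1 FPKM or more in 2 or more libraries were tested on log2(FPKM + 1), a pseudocount of 1, which understates changes of low genes. One limma 3.58.1 model with intensity trend (R 4.3.3) had a term per group over 12 libraries and 7 contrasts, with two-sided Benjamini-Hochberg adjusted p below 0.05 as a call. The procedure was tested on simulated data. There the spread of each gene was capped and changes were placed only in genes above a set level. It therefore says nothing of genes with wider spread or lower level. No 2 libraries were identical (highest r 0.964).

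The members, the 14 other gene lists and the tests were chosen with earlier results of these data known. All 8 members are named, with up to 4 genes of smallest p per list, their paralogs and single tissue markers; Lgr5 and Ascl2 were chosen after their values were seen. The genes most like Notum are not reported here. Alternatives were pseudocounts of 0.1 and 0.5, no filter, a mean of at least 5 FPKM, scaling by quantiles or by medians of ratios, fits of only the groups compared, a replicate block, library quality weights, columnar and squamous scores as covariates, and leaving out each library; leaving out a pair of Lgr5-Apc libraries was added after the data were seen.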

Additional observations from a re-analysis of the deposited data

Results flagged for a closer look

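Notum in Lgr5-Apc replicate 2, at 0.851 FPKM, was far from the other 3 Lgr5-Apc libraries, at 0.132 to 0.170 FPKM. Its gap to the nearest of them took a share of 0.947 of the group's range, above Dixon's 95% limit of 0.829 for 4 samples. Of the 8 members, each examined in this group of 4, this was the 1 found distant. Chance gives about 1 in 20 for each gene examined, and more than that for at least 1 among the 8. The same library held 22.9 FPKM of Apcdd1, 13.3 FPKM of Znrf3 and 40.1 FPKM of Atp2a1, and its part in the Notum value was not tested.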

How the results depend on the processing

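Counts of called members in Lgr5-Cdx2-Apc against control (3) were 1 with a pseudocount of 0.1, with no filter and with the replicate block, 5 with library quality weights, 0 with the columnar score and 5 without both of Lgr5-Apc replicates 2 and 3, a setting chosen after seeing the data. Against Lgr5-Apc (2) they were 1 with a pseudocount of 0.1 and 5 without both libraries. They were 0 with the compared groups alone, with the replicate block and with the columnar score. They were also 0 with a mean of at least 5 FPKM, but Tcf7, Nkd1 and Notum lie below that filter and could not be called there. Against Cdx2-Apc (3) the counts were 0 with the columnar and 0 with the squamous score. The departure from additivity (0) was 2 without both libraries. Leaving out 1 library at a time gave 0 to 5 against control, 0 to 5 against Lgr5-Apc, 0 to 3 against Cdx2-Apc and 0 to 1 for additivity; where this left 1 Lgr5-Cdx2-Apc library, it was assumed to vary like the other groups. The other 3 contrasts had 0 called members throughout. Notum turned to -0.49 against control, -0.23 against Lgr5-Apc and -0.46 against Cdx2-Apc with the columnar score. Of 49 member differences, 8 were called and 0 of those changed sign in any of 24 alternatives, while 20 others did. The cause of these changes was not tested. Under both scalings Tcf7, Apcdd1 and Axin2 stayed called against control, and with quantile normalization Nkd1 passed too.

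Over all genes, calls against control (3315) were 1925 with a mean of at least 5 FPKM, 6320 with quality weights, 82 with the columnar and 1640 with the squamous score, and 50 without Lgr5-Cdx2-Apc replicate 2. Against Lgr5-Apc (1560) they were 65 with the compared groups alone, 4453 without Lgr5-Apc replicate 2 and 41 without Lgr5-Cdx2-Apc replicate 2. Against Cdx2-Apc (4132) they were 71 with the columnar score and 109 without Lgr5-Cdx2-Apc replicate 2, and for additivity (274) 9 with a pseudocount of 0.1 and 2396 without Lgr5-Apc replicate 2.

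Whether replicate numbers pair the samples could not be settled. The 15 same-number pairs had a median correlation of deviations from the group mean of -0.02, with 5 above 0.1. The 38 other pairs had a median of 0.01, with 14 above 0.1. The deviations of the Lgr5-Cdx2-Apc libraries mirror each other exactly, and tissue markers also varied within groups, so this comparison cannot exclude pairing. Of 21 most-alike genes, 20 were kept with a pseudocount of 0.5, 14 with 0.1, 16 with median-of-ratios scaling, 10 with quantile normalization and 4 with group means subtracted. Depth in reads is unknown, which limits Notum and Sp5 most.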
